A study of Homo sapiens with 15 samples.

Results

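FOXA1 binding was compared between 22Rv1 cells that received a small interfering RNA against FOXA1 (siFOXA1) and cells that received a control RNA (siControl). 22Rv1 is an established human prostate carcinoma line. Binding was measured by chromatin immunoprecipitation with a FOXA1 antibody followed by sequencing (ChIP-seq), and the data are the lists of peaks that the authors deposited. Both lists were taken whole: 34119 siControl peaks and 3018 siFOXA1 peaks, together 37137 of the 249079 peaks in the 12 lists of the series. A siControl peak was called retained where it overlapped a siFOXA1 peak by at least 1 bp, and a siFOXA1 peak without such an overlap was called siFOXA1-only.

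Both groups were parental 22Rv1 cells with no engineered allele, and each had 1 library. The labels give neither a dose nor a time for the RNAs, and the level of FOXA1 RNA or protein after knockdown was not analysed here. The other 10 lists were used to describe the same peaks. In parental cells these were DMSO, the splicing inhibitor pladienolide B (PladB; 100 nM by the sample label, 10 nM by the shared protocol) and the stereoprobes WX-02-23 and WX-02-43 at 20 µM, each for 3 h. The other 6 lists came from 22Rv1 cells that overexpressed the Y36C form of PHF5A, a splicing factor subunit, and carried a doxycycline-inducible FOXA1. One line induces wild-type (WT) FOXA1 and the other its C258A form. Each line was profiled uninduced (DMSO alone) and induced by doxycycline, with either DMSO or 20 µM WX-02-23 added. Whether a line is 1 clone is not given in the sources used here. With 1 library in each group there is no replicate check, no test between conditions and no p-value. Bounds in parentheses after a share are Wilson 95% binomial intervals that treat peaks as independent and cover counting error only. The sequencing depth behind each list is not given in the sources used here, and a list shortened by knockdown and a list shortened by lower depth or weaker enrichment cannot be told apart.

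FOXA1 is a forkhead transcription factor of the pioneer class: it binds its sites in compacted chromatin and helps to open them for other factors. In prostate cells it works beside the androgen receptor at enhancers. A FOXA1 knockdown is a common control in such an experiment, because a peak made by the antibody binding FOXA1 should weaken when the protein is depleted.

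Of the 34119 siControl peaks, 1310 were retained, 3.84% (3.64 to 4.05), and 32809 were not. The siFOXA1 list covered 2.27 Mb against 28.0 Mb with siControl, and the bases common to both lists were 3.19% of the siControl bases and 39.4% of the siFOXA1 bases. In the opposite direction, 1333 of the 3018 siFOXA1 peaks overlapped a siControl peak and 1685 were siFOXA1-only, 55.8% (54.1 to 57.6). Near misses were few: 45 of the peaks that were not retained, 0.137%, had a siFOXA1 peak within 500 bp. With the siControl list cut to its 3018 highest-scoring peaks, 23% overlapped a siFOXA1 peak. The siFOXA1 list was also made of narrower and lower-scoring peaks, with a median width of 489.5 bp against 729 bp and a median score of 131.74 against 225.14. The score is the value that the authors deposited with each peak. Its definition is not given in the sources used here, and no deposited score was below 90.

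Retention was concentrated in the peaks with the highest siControl scores. When the siControl peaks were ranked by score and split into 10 equal groups (deciles, from 1 with the highest scores to 10 with the lowest), 22.0% (20.6 to 23.4) of the first decile, 8.47% of the second and 2.46% of the third were retained. From decile 4 on the share lay between 0.557% and 1.03%, with no further steady decline. The first decile alone held 750 of the 1310 retained peaks, 57.3%, and the first 2 deciles held 1039, 79.3%. Within the first decile the share was 28.7% (24.2 to 33.8) in the highest 1%, 22.0% (17.9 to 26.7) in the next 1%, 25.3% (22.7 to 28.1) from 2% to 5% and 18.6% (16.9 to 20.6) from 5% to 10%. A score of 3100 was the most common single value, carried by 143 siControl peaks, and 54 of these were retained, 37.8% (30.2 to 45.9). Only 20 siControl peaks scored higher. The value may be a ceiling of the scoring, which the sources used here do not state, and ratios at such peaks may then be too small.

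The highest-scoring peaks fell on both sides. A peak at chr5:19880353-19881857 (hg19, 1-based, as for all positions here) had a siControl score of 3219.6 and was retained as a siFOXA1 peak of 645 bp with a score of 203.63, which ranked 751 of the 3018 siFOXA1 peaks. A peak at chr4:40191513-40194465 went from 3171.1 to 178.36 and one at chr1:147083710-147085100 from 3131.5 to 92.70, close to the lowest siFOXA1 score. Retained peaks at chr17:78733921-78735237, chr11:108463831-108465137 and chr7:113725271-113729065 had siControl scores of 3126.3, 3115.7 and 3100 and siFOXA1 scores of 134.52, 147.51 and 142.56. Against these, the peak with the highest siControl score, 3228.3 at chr5:54483997-54485567, had no siFOXA1 peak. Neither had the peaks at chr11:27226225-27227571 (3223.5), chr12:62913033-62914631 (3210.5), chr3:71257152-71258666 (3195.3), chr2:144974863-144976420 (3162.2) and chr2:100683423-100685200 (3159.2). All 12 of these peaks were called in each of the other 10 lists. No annotation of this genome build was used here, so genes at these positions are not named.

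Width separated retained from lost peaks in opposite directions, depending on whether score was held level. Over all siControl peaks, 7.55% of the widest quintile (1 of 5 equal groups by width) and 1.49% of the narrowest quintile were retained, and wide peaks also had high scores. Inside the first score decile the order turned: 14.5% (12.1 to 17.3) of the widest quintile and 47.7% (43.9 to 51.4) of the narrowest quintile were retained. The widest quintile spanned 1526 to 13298 bp and the narrowest 441 to 991 bp. The order was the same in decile 2, with 3.07% of the widest and 23.9% (20.9 to 27.2) of the narrowest quintile, in decile 3, with 1.17% and 6.30%, and in decile 4, with 0.732% and 2.79%. It did not hold among weaker peaks. The widest and narrowest quintiles were level in deciles 5 and 6. In deciles 7 to 10 the widest had the higher share, with 1.90% against 0.733% in decile 7, 2.20% (1.34 to 3.59) against 0.293% (0.0805 to 1.06) in decile 8, 2.64% against 0.880% in decile 9 and 0.878% against 0.587% in decile 10. The mean over the 10 deciles, 2.99% for the widest and 8.59% for the narrowest, is set by the first few deciles. Scores did not stand higher in the narrow quintile: in the first decile its median score was 1168.8, against 1728.8 in the widest. Retained peaks of the first decile had a median width of 1016.5 bp and the others of that decile 1223 bp.

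**Figure D1:**
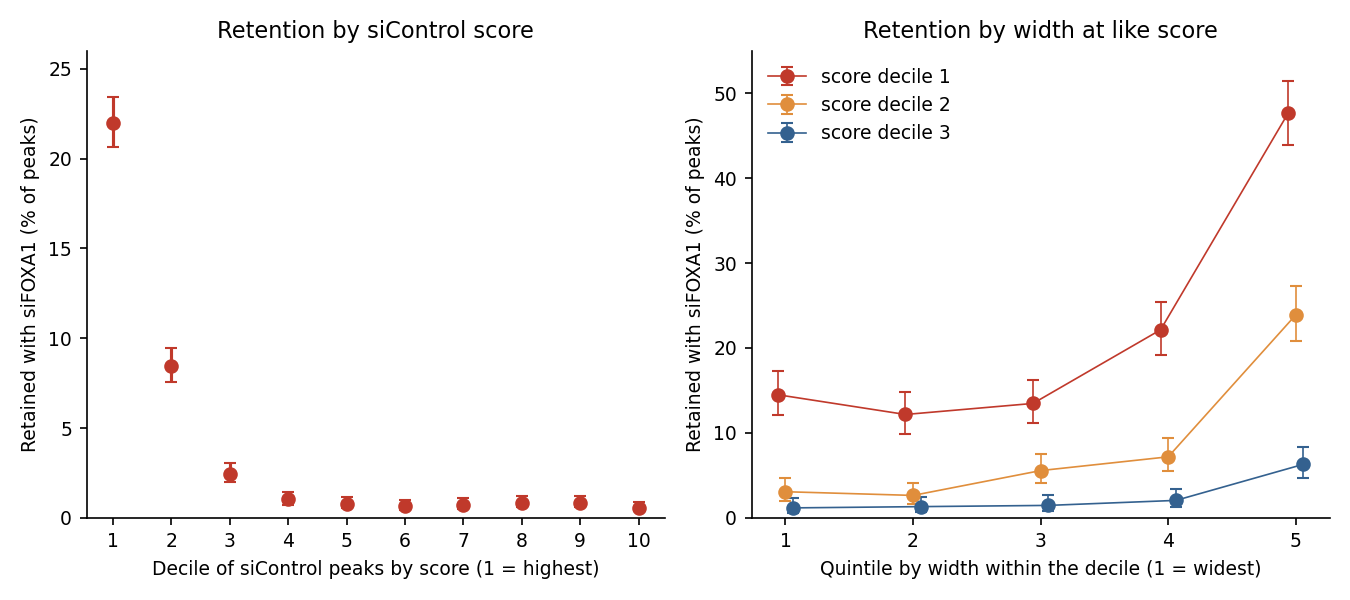
Share of siControl peaks retained with siFOXA1 (%), by decile of siControl score (1 = highest) (left) and by width quintile within the first 3 score deciles (right). Points are shares and bars are Wilson 95% intervals for counting error; the first score decile stands at 22.0%, and within it the narrowest quintile stands at 47.7% against 14.5% for the widest.

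The other 10 lists divided the strong peaks further. All comparisons here start from the same siControl list, so they are not independent of each other. Of all 34119 siControl peaks, 78.5% were called with DMSO, 84.6% with PladB, 43.2% with WX-02-23 and 50.5% with WX-02-43. In the WT line the share was 23.9% uninduced, 33.6% when induced in DMSO, and 26.5% when induced in WX-02-23. In the C258A line the corresponding shares were 34.3%, 15.7% and 23.4%. Read against these, 90.5% of the retained peaks and 78.0% of the others were called with DMSO, and 93.7% and 41.2% with WX-02-23. Since retained peaks had higher scores, the sets were compared within the first score decile.

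There the parental lists hardly told them apart. Retained peaks of the first decile were called in the 4 other parental lists at 99.6% to 100%, and the rest of the decile at 97.0% to 100%. The engineered lists did tell them apart. With doxycycline and DMSO, the WT line called 26.8% (23.8 to 30.1) of the 750 retained peaks and 89.6% (88.4 to 90.7) of the other 2662. The C258A line with doxycycline and DMSO called 20.0% (17.3 to 23.0) and 67.4% (65.6 to 69.2). With doxycycline and WX-02-23 the shares were 22.8% and 78.5% in the WT line and 25.3% and 79.1% in the C258A line. Without doxycycline the gap was smaller: 53.3% and 88.8% in the WT line, and 73.9% and 95.3% in the C258A line. Those uninduced gaps, -35.5 and -21.4 points, narrowed to -7.94 and -11 points where shared peaks had to overlap by at least 50% of both. The induced gap of the C258A line with DMSO also narrowed, from -47.4 to -26.3 points. At 1 bp, the same direction held in each of the 10 score deciles for all 6 engineered lists. In the second decile the WT line with doxycycline and DMSO called 2.77% of the retained peaks and 63.6% of the others.

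**Figure D2:**
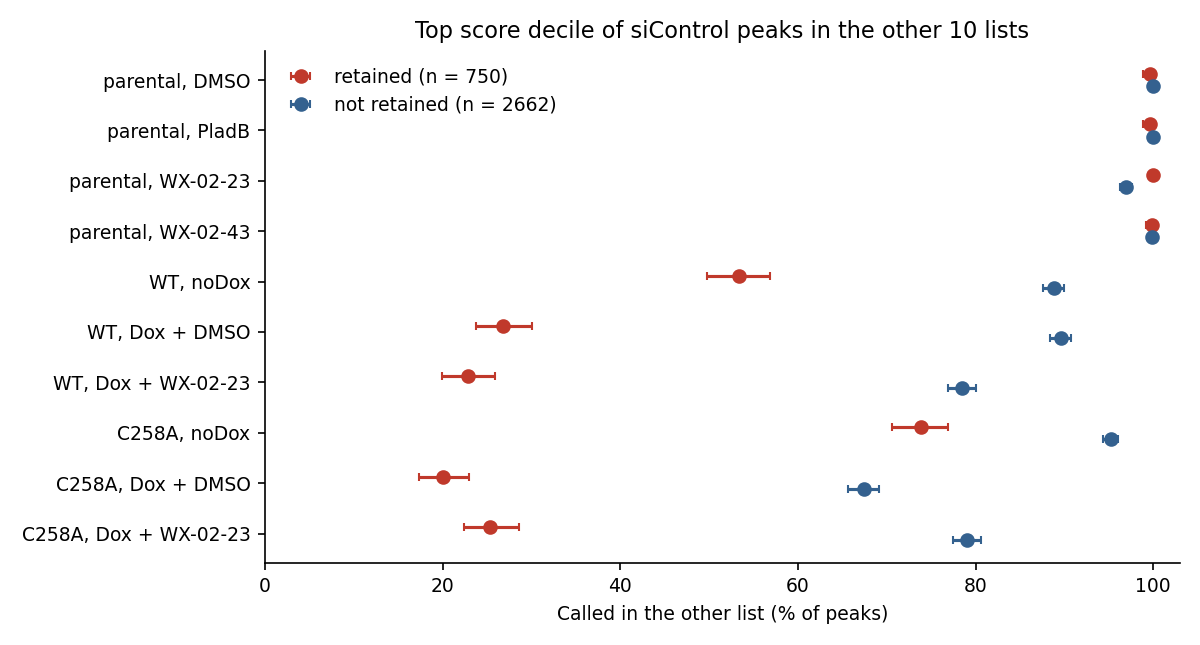
Share of siControl peaks in the first score decile that were also called in each of the other 10 lists (%), for the 750 retained peaks and the 2662 that were not retained; bars are Wilson 95% intervals for counting error. Both sets lie at or above 97.0% in the parental lists, and retained peaks lie lower in all 6 engineered lists, by most with doxycycline.

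Turned around, calls in the doxycycline lists marked which strong peaks were retained. Among first-decile peaks called in none of the 4 doxycycline lists, 523 of 724 were retained, 72.2% (68.9 to 75.4). The share was 15.4% of those called in 1 such list, 5.02% of those called in 3 and 7.81% of those called in all 4, and 27 of the 225 called in 2 were retained. In the second decile it was 21.6% with no doxycycline list and between 0.209% and 2.54% with 1 or more. Among the first-decile peaks in no doxycycline list, calls in the uninduced engineered lists separated retained from other peaks less. Of those in an uninduced list 70.2% (66.2 to 73.9) were retained, and of those in neither 78.0% (71.6 to 83.3). Retention by uninduced calls alone, over all first-decile peaks, is not given here. The parental and the engineered cells differ in line, in PHF5A and in the inducible FOXA1, which cannot be told apart here, and the engineered lists also differ from each other in length, from 8575 to 31735 peaks.

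**Figure D3:**
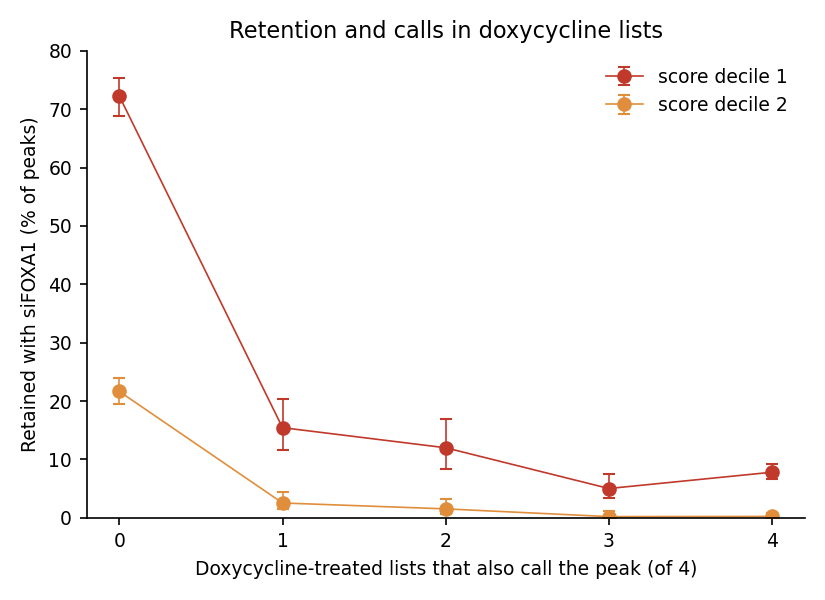
Share of siControl peaks retained with siFOXA1 (%), by the number of the 4 doxycycline-treated lists that also call the peak, in the first and second score deciles; bars are Wilson 95% intervals for counting error. Peaks called in no doxycycline list stand at 72.2% and 21.6%, and peaks called in 1 or more stand at or below 15.4%.

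Absence from the doxycycline lists went with narrow width among the retained peaks. In the first decile, 309 of 325 retained peaks of the narrowest quintile were called in none of the 4 doxycycline lists, 95.1% (92.2 to 96.9), against 55 of the 357 others of that quintile, 15.4%. Toward wider quintiles the retained share was 80.8%, 66.3%, 21.7% and 13.1%, and the share of the others lay between 3.17% and 9.23%. The 523 retained peaks in no doxycycline list were thus mostly narrow, but 214 of them lay outside the narrowest quintile. In the narrowest quintile of the first decile, 2.77% of the 325 retained peaks and 79.6% of the 357 others were called in the WT line with doxycycline and DMSO. The corresponding C258A shares were 1.23% and 57.4%. Retained peaks of this quintile were also called less often without doxycycline. In the uninduced WT line 37.5% of the 325 retained peaks and 85.2% of the 357 others were called. In the uninduced C258A line these shares were 64.0% and 94.96%. In the widest quintile retained and other peaks were close: 84.8% and 89.7% with doxycycline and DMSO in the WT line, and 76.8% and 68.8% in the C258A line.

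Examples of each kind, chosen after their values were seen, show the pattern at single sites. A peak of 930 bp at chr6:74161023-74161952 had a siControl score of 3100 and was called in all 4 other parental lists and in no engineered list. Its siFOXA1 peak was 841 bp wide, with a score of 1081.7 that ranked 49 of 3018. A peak of 922 bp at chr7:96481069-96481990 with the same calls went from 2172.1 to 459.36. Another in no engineered list, of 732 bp at chr6:74134808-74135539, went from 2532.5 to 275.56. Of the other parental lists, only WX-02-23 called it. A peak at chr4:21160862-21162063, called in both uninduced engineered lists and in no doxycycline list, went from 2325.3 to 577.77. Peaks with those calls at chrX:11958461-11959443 and chr1:142949210-142950507 went from 2229.2 to 544.43 and from 2184.6 to 348.4. Each of these examples kept a higher siFOXA1 score than any of the 6 highest-scoring retained peaks above.

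At retained peaks both measures were lower with siFOXA1. The median score was 1080.7 with siControl and 163.88 with siFOXA1. The median log2 ratio was -2.50 (95% interval of the median -2.54 to -2.47), which is 5.66-fold lower. Median width went from 939 bp to 533 bp, and the median change was -327 bp (quartiles -549 to -180). The siFOXA1 peak lay wholly inside the siControl peak in 1014 cases, 77.4%, and the median distance between the centres was 73.75 bp. For scale, the same peaks differed between siControl and the other parental lists by a median log2 of -0.37 with DMSO, -0.22 with PladB, -0.60 with WX-02-23 and -0.66 with WX-02-43. Their median width changed by -79, 10, -138.5 and -145 bp in those lists. Scores are values of the caller within each list, so these ratios describe the lists and do not measure binding. A retained peak also had to reach the lowest score of the siFOXA1 list, which leaves deeper losses out of these medians.

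The size of the change followed the calls in the doxycycline lists. The 523 retained first-decile peaks in no doxycycline list went from a median score of 1341.5 to 220.9, a log2 ratio of -2.58 (quartiles -2.93 to -2.24). The 138 in all 4 went from 2858.4 to 125.25, a log2 ratio of -4.25 (quartiles -4.65 to -3.76), and 51 of these had the siControl score of 3100. Without peaks at or above that score, a choice made after seeing the data, the median log2 ratios were -2.58 over 522 peaks and -4.21 over 82. Peaks in no doxycycline list started at a lower siControl score and ended at a higher siFOXA1 score. Across the 523 peaks, siControl and siFOXA1 scores rose together (Spearman's rho 0.66 across peaks of 1 pair of libraries, which are not replicates), while across the 138 the rho was 0.34, and 0.17 without peaks at or above 3100. In the first decile, the narrowest quintile went from 1299 to 215.84 and the widest from 2934 to 135.

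**Figure D4:**
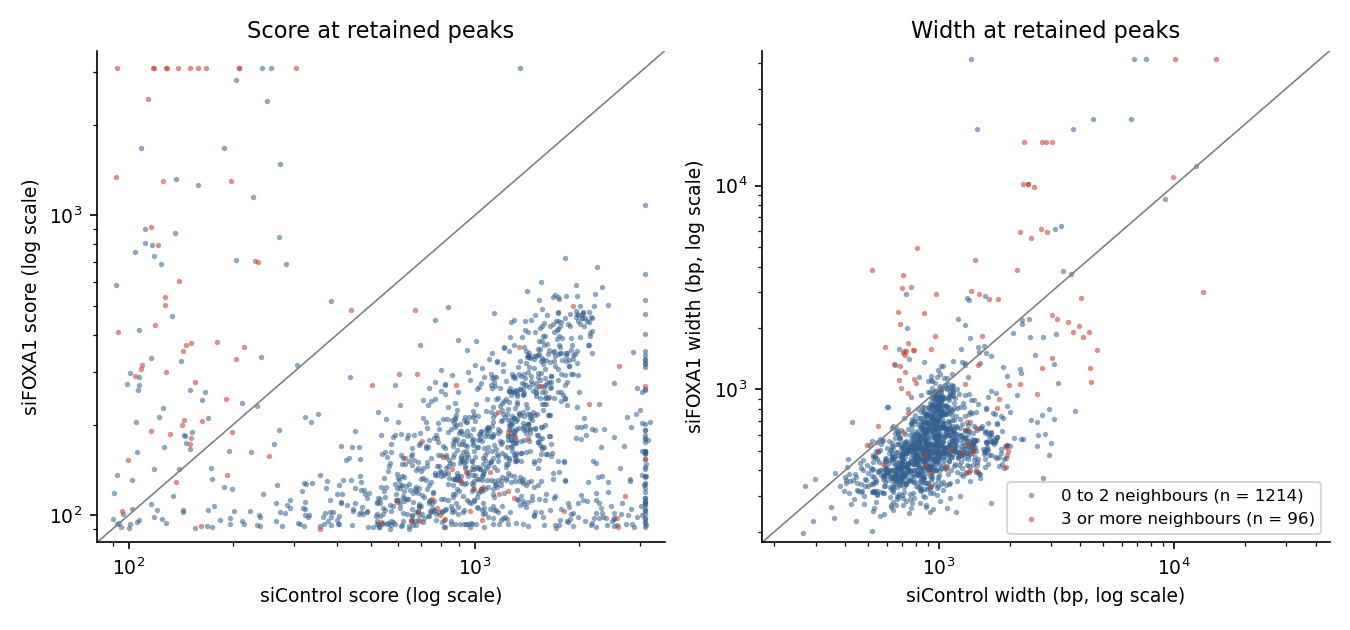
siControl against siFOXA1 score (left) and width in bp (right) at the 1310 retained peaks, both axes on log scales, with the line of equality and peaks with 3 or more siControl neighbours within 10 kb in red. Most points lie below the line; 106 lie above it in score, and these start mainly from low siControl scores.

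A smaller set moved the opposite way. At 106 retained peaks, 8.09%, the siFOXA1 score was the higher one, with medians of 136.62 with siControl and 371.89 with siFOXA1 and median widths of 893 and 1625.5 bp. The peaks were picked by that direction, so the gap between the score medians follows in part from the choice. No siFOXA1 score was below 90.03, so a retained peak that started near 90 could hardly end lower. The siFOXA1 score was higher at 16 of the 19 retained peaks of decile 10 and at 1 of the 750 of decile 1. Of the 106, 101 lay in the lower 6 score deciles. Within 10 kb, 47 of the 106 had 3 or more siControl neighbours, as had 2.17% of all siControl peaks. The 106 were called in DMSO in 15 cases (14.2%) and in WX-02-23 in 58 (54.7%). None of the 106 was called in any of the 6 engineered lists, which allows a share of up to 2.83%. That trait was not particular to the 106. In deciles 4 to 10, 183 retained peaks were called in no engineered list and 4 in 1. Among all siControl peaks of those deciles, 15497 were called in none and 3181 in 1. A further 1782 were called in 2, 1240 in 3, 1205 in 4, 690 in 5 and 288 in 6. Of the peaks in none 1.18% were retained, and of those in 1 0.126%. Among the peaks called in 2 to 6 lists, 0 were retained. In the lower 6 deciles as a whole, 152 peaks were retained. Of these 24.3% (18.2 to 31.7) were called with DMSO, against 64.8% of the peaks that were not retained, and 55.3% (47.3 to 62.9) with WX-02-23, against 20.7%. PladB went with DMSO, at 35.5% (28.4 to 43.4) against 74.7%, and WX-02-43 with WX-02-23, at 44.7% (37.1 to 52.7) against 23.5%. Whether the shorter siFOXA1 and stereoprobe lists share a property of the libraries was not tested.

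Retention also varied with how densely peaks lay. By the number of other siControl peaks within 10 kb, 3.92% of peaks with none, 3.17% with 1, 2.39% with 2, 7.89% with 3 and 24.1% (19.1 to 30.0) with 4 or more were retained. In the lower 6 deciles, 48 of 14000 peaks with no neighbour were retained, 0.343% (0.259 to 0.454), and 50 of 416 with 3 or more (9.24% to 15.5%). Of the 152 weak retained peaks, isolated ones (48) and those with 3 or more neighbours (50) were thus about equally many. Of the 739 peaks with 3 or more neighbours, 75 lay in the 6 chains with the most retained peaks (a chain is a run of peaks with gaps of at most 10 kb), and 60 of those 75 were retained. Outside these chains 36 of 664 were, 5.42% (3.94 to 7.41). The chains were picked for their retained peaks, so a lower share without them follows from the choice and is given only to show how many peaks they held. With a window of 50 kb in place of 10 kb the order turned, to 3.3% with 3 or more neighbours and 4.85% with none, and with a reciprocal overlap of at least 50% the 10 kb share with 3 or more was 3.65%. Of 293 chains of 4 or more siControl peaks, 257 had no retained peak, 36 had some, and 6 of those had all their peaks retained. In the first score decile the order by neighbours differed: 25.5% with none, 16.2% with 1, 12.9% with 2 and 24.2% with 3 or more.

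The same 3 chains held the most siControl peaks and the most retained peaks. One at chr1:144160159-144221345 had 16 siControl peaks with a median score of 139.63, all of them retained. The same interval held 31 siFOXA1 peaks. Of its 16 siControl peaks, 8 were called with WX-02-23, 5 with WX-02-43, 2 with PladB, and none with DMSO or in an engineered list. One at chr1:148234980-148327724 had 17 peaks, of which 13 were retained. Of the 17, 15 were called with WX-02-23, 8 with WX-02-43, 4 with DMSO and 3 with PladB. In the WT line with doxycycline, 3 were called with DMSO and 1 with WX-02-23. The C258A line called 2 with doxycycline and WX-02-23. The one with the most peaks, at chrX:114959481-115005397, spanned 45.9 kb, the shortest of the 3, and differed in score and calls. Its 23 peaks had a median score of 607.43 and centres a median of 2085 bp apart. Of these, 13 were retained, all 23 were called with WX-02-23 and with WX-02-43, and 21 with DMSO and with PladB. None was called in the WT line with doxycycline and DMSO, but 13 were with doxycycline and WX-02-23 and 2 without doxycycline. In the C258A line 7 were called with doxycycline and WX-02-23 and none in the other 2 lists.

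Chromosome X had the highest retained share. There 92 of 1003 siControl peaks were retained, 9.17% (7.54 to 11.1), against 3.66% (3.47 to 3.87) on the autosomes together. Without the peaks of the long X chain the share was 8.06% (6.52 to 9.93). In the first score decile 40 of 68 X peaks were retained, 58.8% (47.0 to 69.7), against 21.2% (19.9 to 22.7) on all other chromosomes, and in the second decile 33.0% against 7.75%. Calls in the engineered lists differed there too: 39.7% of the first-decile X peaks were called in the WT line with doxycycline and DMSO, against 76.5% elsewhere. In the uninduced C258A line these shares were 76.5% and 90.8%. Among the other chromosomes, Y had 5.94% (3.50 to 9.89) retained and chromosome 8 5.23%. The Y interval overlaps that of X. In the first decile 7 of 15 Y peaks were retained, 46.7% (24.8 to 69.9), which overlaps X as well. The lowest share was 5 of 354 on chromosome 21, 1.41%.

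**Figure D5:**
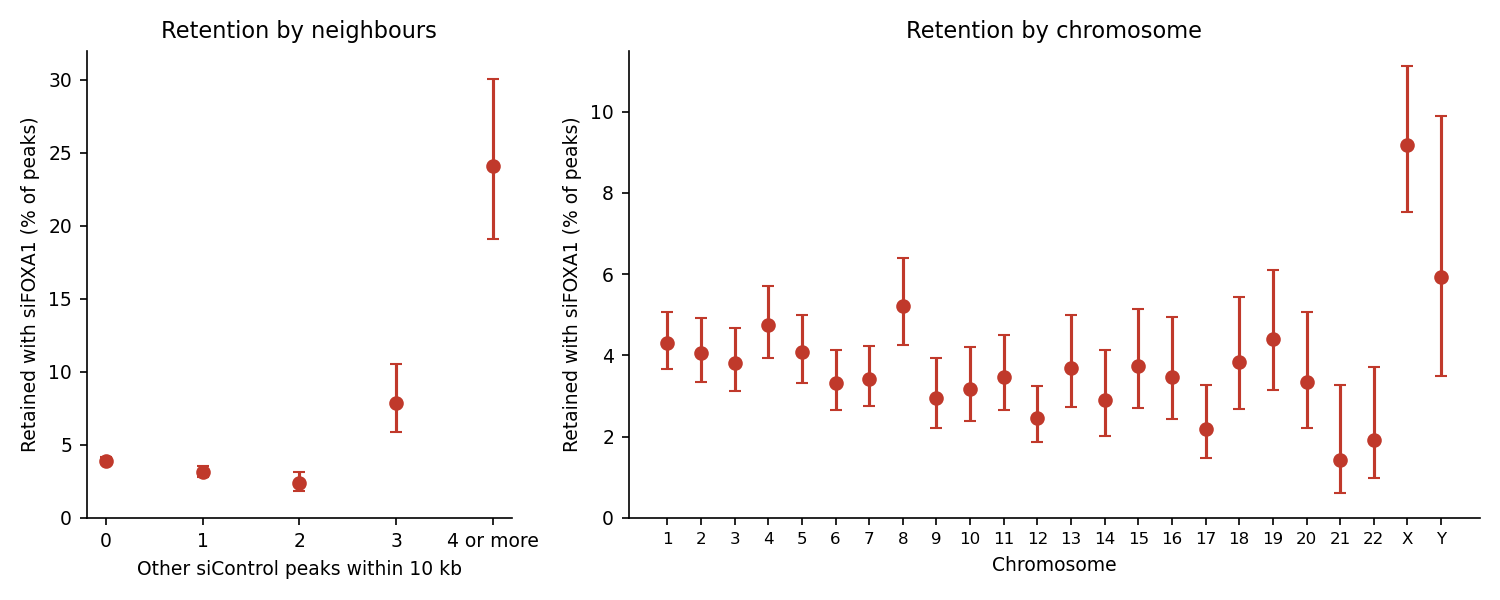
Share of siControl peaks retained with siFOXA1 (%), by the number of other siControl peaks within 10 kb (left) and by chromosome (right); points are shares and bars are Wilson 95% intervals for counting error. Peaks with 4 or more neighbours stand at 24.1%, and chromosome X at 9.17%.

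The 1685 siFOXA1-only peaks were mostly weak and mostly absent from the other lists. Their median score was 117.67 and median width 444 bp, against 161.84 and 529 bp for the shared siFOXA1 peaks. Of them, 467 (27.7%) had 3 or more other siFOXA1 peaks within 10 kb, against 121 of the 1333 shared peaks (9.08%). More of them, 917 (54.4%), had no such neighbour, as had 1046 of the shared peaks (78.5%). A siControl peak lay within 10 kb of 582 of them (34.5%). In no other list were 1565 (92.9%) called. The lists that called most of the rest were WX-02-23 with 4.63% and WX-02-43 with 3.32%, against 1.01% with DMSO and 0.119% in the WT line with doxycycline and DMSO. The set was defined by absence from the siControl list, of which 78.5% was called with DMSO and 84.6% with PladB. Low shares in the parental lists therefore follow in part from the definition. The same shares for the shared siFOXA1 peaks are not given here.

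Part of the siFOXA1-only peaks lay in chains. The 52 siFOXA1 chains of 4 or more peaks held 506 of them, 30.0%, and the 6 with the most peaks held 183. The one with the most peaks, chr7:61104749-61237006, had 60 peaks, and chains at chr4:9214741-9274494 and chr4:9324668-9370745 had 46 and 35. These 3 chains held no siControl peak. In the chr4 chains the peak centres were a median of 1340 and 1197 bp apart. Further chains at chr1:144160434-144224386 (32 peaks, 13 siFOXA1-only), chr8:86726436-86840922 (30 and 13) and chr1:148252960-148327814 (29 and 16) were shared in part with siControl, and the chr8 chain had a median siFOXA1 score of 1322.8.

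The siFOXA1-only peaks with the highest scores were long and lay on few chromosomes. On chromosome Y these were chrY:10094610-10104555, chrY:10084457-10091608 and chrY:58819341-58823291, each with a score of 3100. The first and second of these were called in no other list, and the last with WX-02-23 and in both uninduced engineered lists. Peaks at chr8:46838900-46847089 and chr4:190987660-190991387 also had 3100. The chr8 one was called with WX-02-23, and the chr4 one with WX-02-23 and WX-02-43. One at chr8:86838025-86840922 had 2505.5 and was called with both stereoprobes. Chromosome 4 held 12.4% of the siFOXA1-only peaks and 6.37% of the siControl peaks, and chromosome Y 3.80% and 0.642%. No filter for repeats or poorly mappable sequence was applied to the lists here. Whether the long peaks and the chains named above lie in such sequence was not tested.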

How the data were processed

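FOXA1 ChIP-seq peak lists of 22Rv1 cells, 1 per library, were analysed for 12 of the 15 samples; the 3 inputs were not analysed here. Per the labels' protocols, fixation used 1.1% formaldehyde, DNA was sheared by sonication, and a ThruPLEX kit gave the libraries. The submitters' processing notes name bcl2fastq, Bowtie2 and the build hg19. Peak caller settings, control and read depth are not given in the sources used here; peak names begin with MACS. Each deposited file had 5 columns, the last a score per peak by the authors, used to rank peaks within a list and to describe retained peaks.

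Overlaps of at least 1 bp, widths, neighbours within 10 kb and chains were computed with pandas 2.3.3 and numpy 2.4.6, and intervals with scipy 1.17.1. The overlap and neighbour code was tested on simulated lists against bedtools 2.31.1. Where several siFOXA1 peaks overlapped, the longest overlap was used. Named were the 6 highest-scoring retained, not retained and siFOXA1-only peaks, the 3 siControl chains with most peaks and with most retained peaks, and the 6 siFOXA1 chains with most peaks. Ties in score were settled by width, then by position. Members and lists were chosen with earlier results of these data known.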

Additional observations from a re-analysis of the deposited data

How the results depend on the processing

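Under 81 alternatives of 14 results, 40 values stayed within the interval of the main value (for a count, within 1.5 times) and 41 moved. The label reversed was given to 0, but a single share or count could hardly earn it. That label does not cover the order between shares, which turned by neighbours and by width, as given below. Of the alternatives, 29 were chosen after seeing the data. With a reciprocal overlap of 50%, the retained share was 2.4%, the first-decile share 13.2%, the widest-quintile share 3.17%, the share with 3 or more neighbours 3.65% and with none 2.66%, chromosome X 6.28%, the score change -2.33 and the width change -247 bp. The first-decile difference in calls (retained minus not retained) was then -26.3 points for C258A with doxycycline and DMSO (main -47.4), -11 for C258A (main -21.4) and -7.94 for WT without doxycycline (main -35.5). With centres within 250 bp, the retained share was 3.38%, the first-decile share 20.2%, the widest quintile 5.82%, 3 or more neighbours 4.74%, and the differences -40.7, -10.3 and -24.6 points, with -54.9 for WT with doxycycline and DMSO (main -62.8). With the DMSO list as control, the first-decile share was 16.6%, the widest quintile 5.97%, 3 or more neighbours 7.3%, none 4.59%, the score change -2.13, the width change -268 bp, and the 4 differences -41.7, -11.3, -24.1 and -53 points. A 50 kb window gave 3.3% with 3 or more neighbours and 4.85% with none, so the order of these turned; without the 6 chains the former was 5.42%. The mean over score deciles gave 2.99% for the widest and 8.59% for the narrowest quintile. The main values were 7.55% and 1.49%, so this order turned as well. The retained share was 4.5% in the upper 50% of both lists, where 735 peaks were siFOXA1-only, 23% with both lists at 3018 peaks, 4.66% for peaks also called with DMSO and PladB, and 3.64% without peaks with 3 or more neighbours. Below the highest 1% by score the changes were -2.44 and -304 bp. Beyond what each alternative changes by construction, the cause was not tested. No paired analysis was possible because each group has 1 library. Read depth is unknown, so a site without a siFOXA1 peak is a site not called, not a site without binding.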

Other observations

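Strong siControl peaks stood at different ranks in the stereoprobe lists depending on retention. In the first score decile, the partner peaks of retained sites had a median percentile of 93.7 within the WX-02-23 list and those of the other sites 83.2, where 100 is the highest score of the list. With WX-02-43 these were 94.3 and 88.7, and with DMSO 92.3 and 94.8. Retained sites called in the uninduced lists ranked lower than the others there, at 63.1 against 80.8 in the WT line and 51.8 against 85.5 in the C258A line. In the 4 doxycycline lists the retained sites that were called ranked higher: 88.9 against 83.6 and 84.8 against 77.1 in the WT line with DMSO and with WX-02-23, and 86.4 against 71.5 and 80.9 against 76.6 in the C258A line. In that order, these medians cover only 201, 171, 150 and 190 of the 750 retained sites. For the 2662 others they cover 2385, 2090, 1795 and 2105. The 138 retained sites called in all 4 lists had a median siControl score of 2858.4. Over all 1766 first-decile peaks called in all 4, retained ones included, the median was 1585.9. For the 2662 others, called in these lists or not, it was 1353.2. Whether the higher ranks come from which sites were called was not tested. All of these values rest on 1 library per list and on the same siControl peaks.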
